A study of Mus musculus with 8 samples.

Results

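Loss of connexin 47 (Cx47) was examined in mice with iguratimod-treated experimental autoimmune encephalomyelitis (EAE) by setting 1 microarray of Cx47-deficient mice against 1 microarray of wild-type mice. These are 2 of the 8 arrays in the series, chosen by their titles, and 23202 genes (35370 probes) of the 36994 gene names (56605 probes) on the array were well above background on at least 1 of them. The RNA came from material whose source is given as astrocytes and whose tissue label is spinal cord, in the strain C57Bl/6J. The other 6 arrays hold the same genotypes naive, in untreated EAE and in chronic EAE, again with 1 array per group. The series title describes a conditional knockout restricted to oligodendroglia, while the title marks icKO (Cx47-deficient) and FL or F/F (wild-type) were not interpreted. The labels give no age, iguratimod dose, treatment time, driver of the deletion or isolation procedure for the cells, nor whether an array carried RNA of 1 mouse or of several. With 1 array a side there is no replicate, so no difference here was tested; every value describes these 2 arrays.

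Oligodendrocytes use Cx47 to form gap junctions with astrocytes, which contribute the partner connexin encoded by Gja1, and the coupled glia share ions and metabolites. EAE is a mouse model of multiple sclerosis in which T cells primed against myelin enter the central nervous system, recruit monocytes and activate microglia and astrocytes through interferon-gamma and other cytokines. Iguratimod is an anti-inflammatory compound used against rheumatoid arthritis that restrains NF-kB signalling and cytokine production.

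Levels are given below as a percent of the signal at the 75th percentile of the array's own spots, so that 100 is that percentile, and differences as Cx47-deficient minus wild-type on the log2 scale, where 1 is 2-fold. Levels of different genes are not comparable, since each probe has its own response. Both iguratimod arrays lay on the same slide, and 62.57% of spots on the Cx47-deficient array and 61.1% on the wild-type array were well above background, within the range of 59.7% to 72.01% over the 8 arrays. No spot was saturated. The chronic arrays lay on another slide, and Xist was well above background on both of them and dim on the other 6, while Ddx3y, Eif2s3y and Uty of the Y chromosome were dim on both and bright on the other 6; slide, sex-linked signal and stage cannot be told apart in any comparison with the chronic pair. For a gene compared here the scanner software's own error of a difference had a median of 0.205, and this covers the array measurement only, not the spread between mice or cell preparations.

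Connexins of both glial types were measured. Gjb6, an astrocyte connexin, was at 995 on the wild-type and 694 on the Cx47-deficient array (-0.52), and Gjb1, an oligodendrocyte connexin, at 497 and 707 (0.51). Gja1, the astrocyte partner of Cx47, was at 141 and 115 (-0.30), but its probes disagreed, between -0.30 and 1.81, and their mean was 0.10. Gjc3, an oligodendrocyte connexin, was at 59.1 and 55.4 (-0.09, with probes between -0.09 and 0.48). By the brightest probe of each gene, none of these 4 genes differed by 2-fold.

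Across the genome 611 of the 23202 genes (2.63%) were 2-fold or more higher in the Cx47-deficient array and 546 (2.35%) were 2-fold or more lower, together 4.99%, so 52.8% of the differing genes were higher. The median gene differed by -0.0274, and the central 90% of genes lay between -0.691 and 0.767. Under median centring the split turned to 462 higher and 680 lower (40.5% higher), and normexp background correction, which adds an offset and shrinks differences of dim genes, left 183 and 134. Large differences were commoner at low signal. Among the 5451 genes with a mean level under 10, 4.68% were higher and 5.63% lower by 2-fold, against 0.976% and 0.627% of the 10043 genes over 100. Of the higher genes 106, and of the lower genes 136, were not well above background on 1 of the arrays, and for these the difference is a lower bound.

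**Figure D1:**
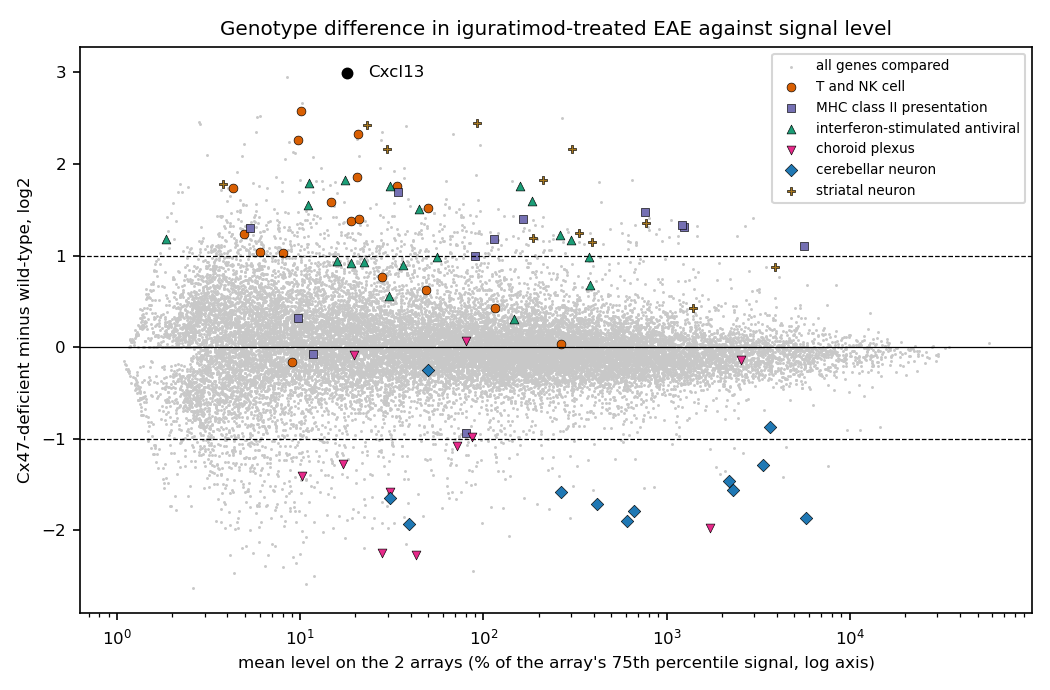
Each point is a gene, with its mean level on the 2 iguratimod arrays on the horizontal log axis (percent of the array's 75th percentile signal) and its Cx47-deficient minus wild-type difference (log2) on the vertical axis; dashed lines mark 2-fold. T and NK cell, MHC class II and interferon-stimulated genes lie mostly above 0, cerebellar and choroid plexus genes mostly below 0, and the labelled point is Cxcl13 (7.98-fold).

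The higher side was led by immune genes. Of the 12 genes with the largest higher differences, 9 are genes of lymphocytes, dendritic cells or macrophages or a chemokine that attracts them. Cxcl13, the chemokine that draws B cells into follicles, was at 6.38 on the wild-type and 50.9 on the Cx47-deficient array, a 7.98-fold difference. Its probe lies at chr5:96389861-96389920 (mm9). In untreated EAE Cxcl13 was at 10.1 and 42.4, and both naive arrays had it near background. Gimap3, a GTPase of lymphocytes, was at 4.08 and 25.8 (2.66), and Il2rb, the beta chain of the interleukin 2 receptor on T and NK cells, at 4.13 and 24.7 (2.58). Itgax, the integrin CD11c of dendritic cells and activated microglia, was at 16.3 and 86.9 (2.41). Cxcr6, a chemokine receptor of activated T cells, was at 12.4 and 63.2 (2.35), and Chil3, a lectin of macrophages, at 30.4 and 153 (2.33). Cd2 and Cd3g, T cell surface molecules, differed by 2.32 and 2.26, and Ms4a4b, a T cell membrane protein, by 2.26. The remaining members of this group were Drd1 and Gpr6, described with the striatal genes below, and Ido1, described after them. These differences shrank under normexp correction, to 1.75 for Cxcl13, 1.26 for Gimap3, 1.24 for Il2rb and 1.04 for Cd3g, against 2.19 for Drd1 and 1.83 for Itgax, so their order depends on the background correction.

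In 19 lists of immune genes, 242 genes were compared and 87 (36%) were 2-fold or more higher, against 2.63% of all genes, while 5 (2.07%) were 2-fold or more lower, against 2.35%. The median of these 242 genes was 0.80. The pool left out the neutrophil list, where none of 11 genes was 2-fold higher and 1 was lower, with a median of -0.38. It also left out the NF-kB list, with none of 13 genes at 2-fold. The material is bulk RNA, in which more cells of a type and more RNA per cell cannot be told apart.

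**Figure D2:**
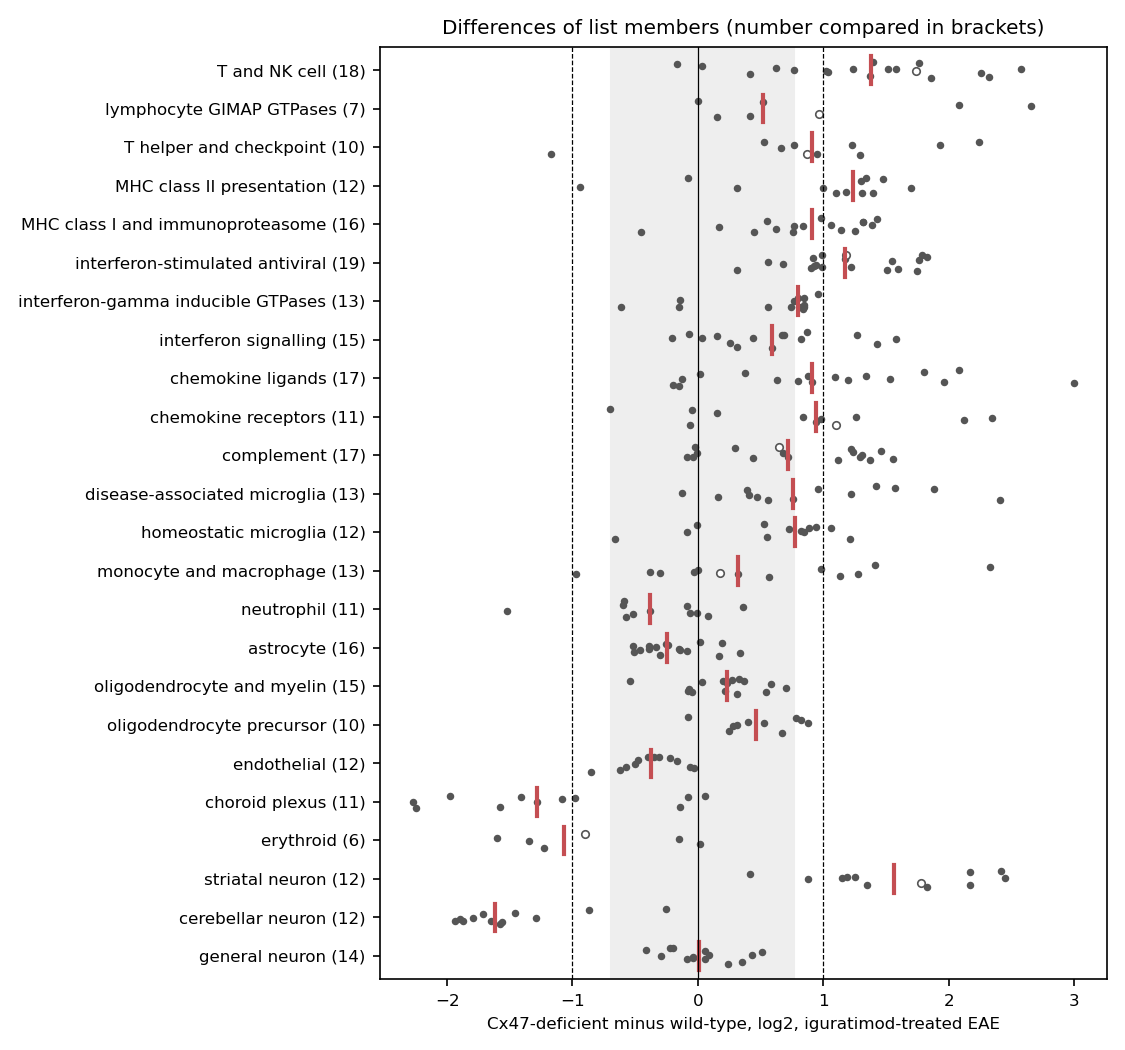
Each point is a gene of the list named on the vertical axis, placed by its Cx47-deficient minus wild-type difference (log2) in iguratimod-treated EAE; open points are lower bounds, red bars list medians, the grey band the central 90% of all genes compared and dashed lines 2-fold. List medians reach 1.38 for T and NK cell genes and 1.56 for striatal genes on the higher side and -1.62 for cerebellar genes on the lower side, while the astrocyte list lies at -0.25.

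T and NK cell genes were mostly higher. Of 20 genes, 18 were compared, 13 were 2-fold or more higher and none lower, with a median of 1.38, which was 0.70 under normexp correction. Besides Il2rb, Cd2 and Cd3g, the cytotoxic granule membrane gene Nkg7 differed by 1.86, to a level of 38.7 on the Cx47-deficient array. Cd3d, a subunit of the T cell receptor complex, was at 18.4 on the wild-type and 62.5 on the Cx47-deficient array (1.76). The protease Gzmb, a weapon of cytotoxic cells, was not well above background on the wild-type array and was at least 3.34-fold higher on the other. Ifng, the gene of interferon-gamma, was at 3.23 and 7.62 (1.24). Cd4, the coreceptor of helper T cells, was at 100.2 and 134 (0.42), and Cd247 and the pore-forming gene Prf1 differed by 0.03 and -0.17. The 20 genes of this list summed to a level of 559 on the wild-type and 913 on the Cx47-deficient array, and 17 and 18 of them were well above background. Bright probes weigh most in such a sum, and Cd247 alone was at 262 and 267.

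Genes of T cell activation mostly pointed the same way. In the T helper and checkpoint list 4 of 10 compared genes were 2-fold or more higher and 1 lower, at -1.17, with a median of 0.91. The costimulator Icos was at 3.98 on the wild-type and 18.8 on the Cx47-deficient array (2.24), the inhibitory receptors Lag3 at 16.7 and 63.6 (1.93) and Havcr2 at 18.9 and 46.3 (1.29), and Tbx21, which specifies the Th1 fate, at 34.5 and 80.8 (1.23). Foxp3, Il17a, Csf2, Il10, Ctla4 and Tigit were dim (not well above background) on both. Of the GIMAP GTPases of lymphocytes, 2 of 7 were 2-fold or more higher, Gimap3 and Gimap4 (5.73 and 24.2, 2.08), and the median was 0.52. B and plasma cell genes were mixed, with 2 of 8 higher and 2 lower: Cd79b was at 8.95 and 21.7 (1.28), whereas the probes of Ms4a1 disagreed, between -1.49 and 1.90.

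Chemokines and their receptors followed. Of 17 chemokine ligands compared, 8 were 2-fold or more higher and none lower, with a median of 0.91. Ccl3 and Ccl4, which attract monocytes and T cells, were at 10.2 and 43.2 (2.08) and at 13.9 and 53.8 (1.96) on the wild-type and Cx47-deficient arrays. Ccl5 was at 230.4 and 801 (1.80), and the CXCR3 ligands Cxcl9 and Cxcl10, which interferon-gamma induces, at 38.2 and 109.9 (1.53) and at 125 and 288 (1.20). Cxcl12 and the neutrophil attractant Cxcl1 differed by -0.20 and -0.15. The receptor of Cxcl9 and Cxcl10, Cxcr3, was at 4.47 and 19.5 (2.12). Of 11 receptors 4 were 2-fold or more higher and none lower, with a median of 0.94, which was 0.37 under normexp correction.

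Antigen presentation genes were higher for both MHC classes. Of 12 class II presentation genes 8 were 2-fold or more higher, none lower, and the median was 1.24. H2-Aa, a class II chain, was at 102 on the wild-type and 269 on the Cx47-deficient array, H2-Ab1 at 792 and 1969 (1.31), and the invariant chain Cd74 at 455 and 1267 (1.48). H2-Oa, which modulates peptide loading in B cells and some dendritic cells, was at 18.9 and 61.4 (1.70). The probes of Ciita, the transcriptional coactivator of class II genes, disagreed, between -0.94 and 1.57. Of 16 class I and immunoproteasome genes 7 were 2-fold or more higher and none lower, with a median of 0.91. Nlrc5, the class I coactivator, was at 19.3 and 51.9 (1.43), H2-K1 at 1685 and 4221 (1.32), the peptide transporter Tap1 at 58.4 and 139 (1.25) and B2m at 3176 and 5395 (0.76). H2-Q4 (-0.45) and other members of this multigene family may share signal between near-identical genes.

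Interferon-response genes were mostly higher. All 19 interferon-stimulated antiviral genes compared were above 0, against 46% of all genes; 10 were 2-fold or more higher and the median was 1.17. The RNA-sensing synthetases Oas2 and Oas1a were at 9.35 and 33.1 (1.83) and at 86.2 and 292 (1.76) on the wild-type and Cx47-deficient arrays, the GTPase Mx1 at 6.03 and 20.9 (1.79), and the deubiquitinase-like regulator Usp18 at 26.3 and 74.7 (1.51). In the list of interferon-gamma inducible GTPases, which guard against intracellular parasites, 10 of 13 genes were above 0 but none was 2-fold, and the median was 0.80. Under normexp correction the antiviral and GTPase medians were 0.78 and 0.74, and a difference between these lists was not tested. Gbp6 was at 51.0 and 99.6 (0.96), Iigp1 at 211 and 376 (0.84) and Gbp2 at 206 and 305 (0.56). Among the factors that carry the signal, Irf7 was at 254 and 761 (1.58) and Irf8 at 106 and 255 (1.27), while the receptor gene Ifngr2 differed by 0.03. Ifnb1 was dim on both arrays. Of these 15 signalling genes 3 were 2-fold or more higher and none lower, with a median of 0.59.

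Untreated EAE gave other levels for the same genes. Oas1a was at 157 (wild-type) and 241 (Cx47-deficient) in untreated EAE, Irf7 at 416 and 625, and Mx1 at 13.9 and 16.9. For these 3 genes the Cx47-deficient array read higher with iguratimod than without, and the wild-type array lower. The GTPases differed from this, with Iigp1 at 339 and 579.6 and Gbp2 at 294 and 441 in untreated EAE, each above its level on the array of the same genotype with iguratimod. These comparisons rest on 1 array each.

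Promoters of interferon-response genes carry elements bound by IRF and STAT factors, so the core of the interferon-stimulated response element (GAAA, any 2 bases, GAAA) was searched on both strands from 250 bases before to 50 bases after each gene's start, in RefSeq promoters of the GRCm38.p6 build. It was present in 38 of the 321 higher genes that had a promoter in the table (11.8%) and in 6 of 267 lower genes (2.25%). The share was 3.76% of the 13759 genes compared that had a promoter. A gene counted if any of its promoters held the core. Of the antiviral genes 8 of 13 with a promoter held it (61.5%), as did 9 of 10 interferon-gamma inducible GTPases (90%). In the class I list 4 of 16 did (25%), against 3.99% of the 27025 genes with a promoter. For TTCNNNGAA, the core of a STAT site, the shares were 11.8% of higher and 9.74% of lower genes. It was held by 5 of 10 GTPases and 9.55% of all genes with a promoter, and the motifs can overlap. A match is a description of the letters, not a binding site. The 250 bases before the start are given for 6 genes, taken from each list by the largest difference among members bright on both arrays that hold the element in this stretch, to let the antiviral genes (Oas1a, 1.76, and Bst2, a tether of budding virus, 1.22), the GTPases (Irgm1 and Irgm2, both 0.85), the chemokine Cxcl10 (1.20) and the class I gene H2-T23 (1.14) be compared. Capitals mark this core on either strand. In Oas1a, Bst2 and Irgm1 2 copies overlap, and in Oas1a and Irgm1 the nearer copy ends 5 and 15 bases before the start, while that of Cxcl10 ends 204 bases before it. No probe or promoter measurement bears on binding at these letters.
Oas1a, chr5:120907526-120907775, minus strand: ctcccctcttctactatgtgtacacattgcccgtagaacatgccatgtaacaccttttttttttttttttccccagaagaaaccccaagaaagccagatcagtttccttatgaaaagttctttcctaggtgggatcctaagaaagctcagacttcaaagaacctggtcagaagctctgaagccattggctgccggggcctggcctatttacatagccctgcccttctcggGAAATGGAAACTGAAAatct
Bst2, chr8:71537473-71537722, minus strand: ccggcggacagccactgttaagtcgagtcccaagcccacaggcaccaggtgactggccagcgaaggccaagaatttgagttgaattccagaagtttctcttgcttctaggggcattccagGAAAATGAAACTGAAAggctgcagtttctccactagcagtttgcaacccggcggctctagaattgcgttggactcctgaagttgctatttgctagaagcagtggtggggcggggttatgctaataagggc
Irgm1, chr11:48871421-48871670, minus strand: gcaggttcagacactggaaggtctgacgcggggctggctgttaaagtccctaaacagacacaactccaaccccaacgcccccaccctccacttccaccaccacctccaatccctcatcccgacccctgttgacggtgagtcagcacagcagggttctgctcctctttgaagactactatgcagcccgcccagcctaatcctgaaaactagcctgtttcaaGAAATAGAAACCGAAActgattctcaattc
Irgm2, chr11:58214727-58214976, plus strand: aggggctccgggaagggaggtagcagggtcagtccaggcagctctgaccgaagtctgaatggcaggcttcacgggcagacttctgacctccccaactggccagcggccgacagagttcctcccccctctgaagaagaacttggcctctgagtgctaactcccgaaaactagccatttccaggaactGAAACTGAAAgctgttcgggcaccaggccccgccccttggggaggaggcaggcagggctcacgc
Cxcl10, chr5:92348890-92349139, minus strand: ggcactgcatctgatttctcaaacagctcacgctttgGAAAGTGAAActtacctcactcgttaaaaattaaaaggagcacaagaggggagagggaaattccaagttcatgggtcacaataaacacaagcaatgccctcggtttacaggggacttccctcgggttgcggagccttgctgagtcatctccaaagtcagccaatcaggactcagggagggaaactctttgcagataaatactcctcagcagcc
H2-T23, chr17:36032702-36032951, minus strand: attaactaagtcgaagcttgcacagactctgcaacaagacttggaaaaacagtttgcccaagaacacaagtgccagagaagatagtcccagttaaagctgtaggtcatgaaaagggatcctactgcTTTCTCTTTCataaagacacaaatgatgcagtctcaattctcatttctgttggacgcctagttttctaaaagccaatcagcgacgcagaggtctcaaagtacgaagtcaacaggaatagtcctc

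**Figure D3:**
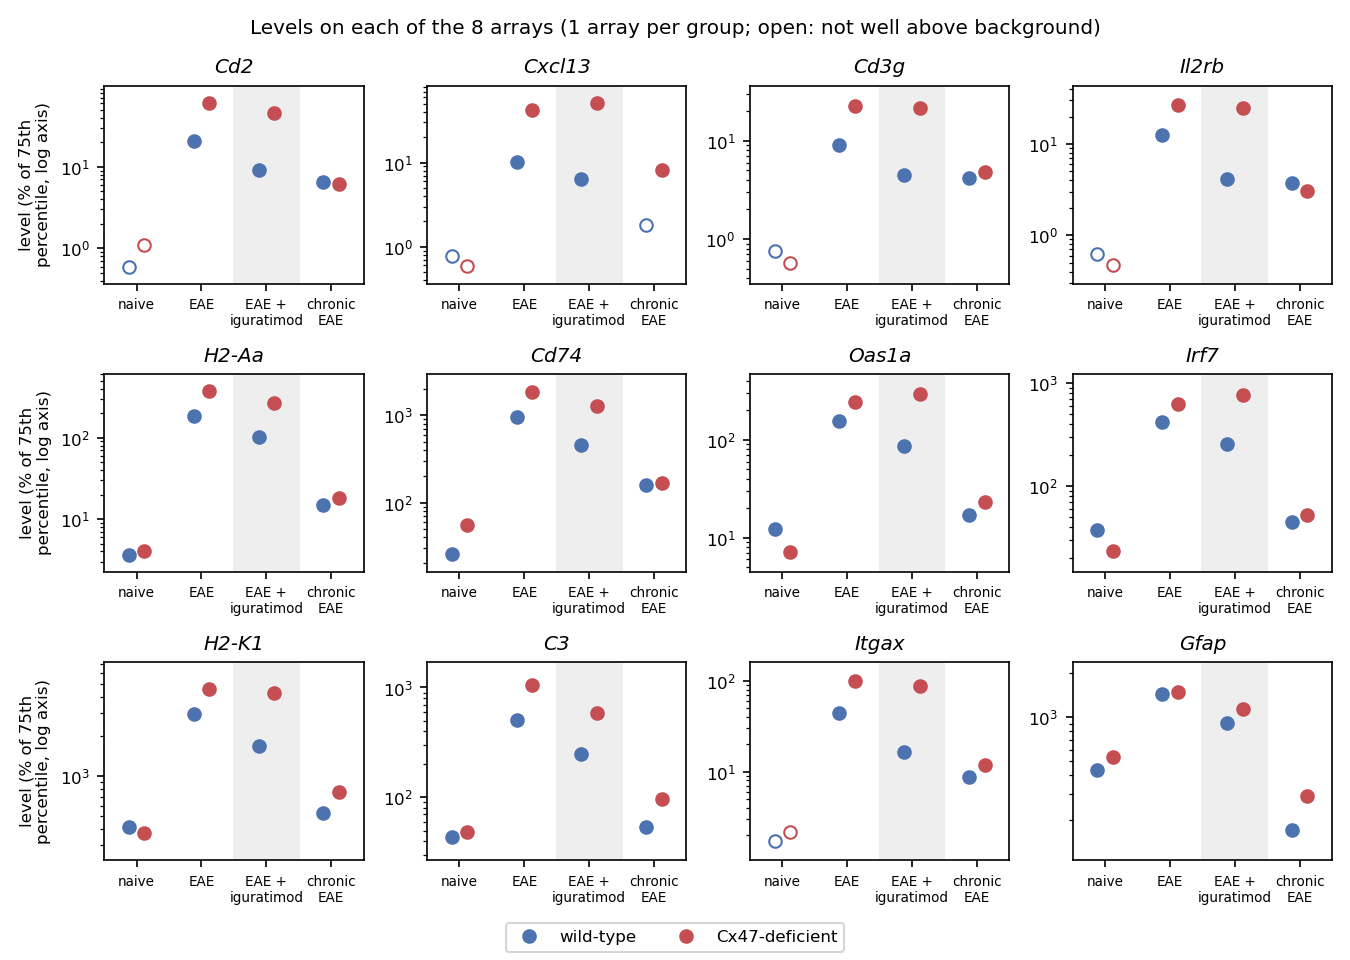
Levels of 12 genes (percent of the array's 75th percentile signal, log axis) on the 8 arrays, 1 point per array, with wild-type in blue, Cx47-deficient in red and the iguratimod pair shaded; open points are not well above background. Immune genes such as Cd3g (4.46 and 21.4), Cd74 (455 and 1267) and Oas1a (86.2 and 292) lie further apart in the iguratimod pair than in untreated EAE, and Gfap (902 and 1139) lies close together.

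Complement and microglial genes were higher as well. Of 17 complement genes 8 were 2-fold or more higher and none lower, with a median of 0.72. Factor B, Cfb, was at 44.8 on the wild-type and 132 on the Cx47-deficient array (1.56), C4b at 504 and 1253 (1.31), C3 at 247 and 585 (1.24), and C1qa, a recognition subunit made by microglia, at 584 and 1433 (1.29). The regulator Cd59a differed by -0.09, and the probes of Cd55 disagreed, between -0.01 and 1.77. In the disease-associated microglia list 5 of 13 genes were 2-fold or more higher, led after Itgax by Cst7 (47.6 and 175, 1.88), Gpnmb (18.8 and 55.8, 1.57) and Clec7a (130.0 and 347, 1.42), with a median of 0.76.

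Of 12 homeostatic microglia genes, which mark resting microglia, 9 lay above 0, with a median of 0.78. Csf1r, the growth factor receptor of microglia and macrophages, was at 1597 and 3694 (1.21, with probes between 0.63 and 1.21). Tmem119 was at 161 and 337 (1.06), and these were the 2 of 12 that reached 2-fold. Below 0 lay Olfml3 at 1059.9 and 670.1 (-0.66, with probes between -0.66 and 0.75), Fcrls (-0.09) and Siglech (-0.01, with probes between -0.66 and 0.54). In untreated EAE Csf1r was at 3037 on the wild-type and 3253 on the Cx47-deficient array, and Tmem119 at 296 and 299.6; the list median there was 0.10, and it was 0.02 in naive mice and 0.00 in chronic EAE. Monocyte and macrophage genes split, with 8 above 0 and 5 below. Lyz2 was at 1819 and 4845 (1.41), Ms4a7 at 29.2 and 70.7 (1.28), Plac8 at 70.5 and 155 (1.13) and Ccr2 at 6.65 and 13.1 (0.98). Arg1 was at 16.8 and 13.7 (-0.30), Mrc1 at 15.9 and 12.2 (-0.38) and the perivascular macrophage gene Cd163 at 7.58 and 3.88 (-0.97). The monocyte gene Ly6c2 was at 890.4 and 871 (-0.03). Its probe read close to that of Ly6c1 of the endothelial list (981 and 869), and the 2 may share signal. The list median was 0.32, with 4 of 13 genes 2-fold or more higher and none lower. Neutrophil genes had a median of -0.38: S100a8 was at 173 and 115 (-0.59) and Retnlg, at 14.9 and 5.19 (-1.52), was 2-fold lower. Of 7 dendritic cell genes 2 were 2-fold or more higher, Itgax and Ccr7 (10.8 and 25.7, 1.26). Zbtb46 was lower (-1.06, with probes between -1.70 and -0.30).

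Innate sensors were higher and cytokine genes mostly close. All 11 Toll-like receptor and adaptor genes compared were above 0, and 3 were 2-fold or more higher: Tlr12 at 19.5 and 70.4 (1.85), Tlr1 at 6.54 and 21.2 (1.70) and Tlr2 at 43.6 and 124 (1.51). Of 15 proinflammatory cytokine and receptor genes 2 were higher by 2-fold, Ltb (29.8 and 75.9, 1.35) and Il1b (12.4 and 29.4, 1.24). Il6 was well above background on the Cx47-deficient array (3.08) and not on the wild-type array, which leaves a bound of at least 1.21-fold. None of 13 NF-kB subunit and feedback genes was 2-fold different, with Nfkb2 at 24.3 and 45.2 (0.89) and Nfkbia at 418 and 389 (-0.10). Of 13 genes of prostaglandin synthesis and macrophage migration inhibitory factor, on which iguratimod is reported to act, only Cd74, the receptor for that factor, reached 2-fold; Mif was at 4847 and 4319.5 (-0.17) and Ptgs2, the inducible cyclooxygenase, at 17.7 and 13.5 (-0.39).

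Astrocyte genes, the labelled cell type, did not differ by 2-fold at the brightest probe of each gene. All 16 were well above background on both arrays. Of these 12 lay below 0, and the median was -0.25. Some probes disagreed: those of Gja1 lay between -0.30 and 1.81, and those of Slc1a3 between -0.51 and 0.65. Aqp4, the water channel of astrocyte endfeet, was at 619 on the wild-type and 472 on the Cx47-deficient array (-0.39, with probes between -0.47 and 0.35), S100b at 9678 and 7012 (-0.46), and Gfap, the filament of reactive astrocytes, at 902 and 1139 (0.34). Of the pan-reactive astrocyte genes 2 of 12 were 2-fold or more higher, Cxcl10 and the protease inhibitor Serpina3n (88.7 and 201, 1.18), while Vim was at 654 and 465 (-0.49). In the A1 reactive list all 11 genes compared were above 0 and 3 were 2-fold or more higher, and these 3 (H2-D1, H2-T23 and Psmb8) are also in the class I list. The A2 reactive list had a median of -0.09, with 1 of 9 genes higher by 2-fold, Tgm1, and 1 lower, B3gnt5.

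Oligodendrocyte lineage genes, of the cells that normally make Cx47, differed by less than 2-fold at the brightest probe of each gene. None of 15 myelin genes and none of 10 precursor genes was 2-fold different, with medians of 0.23 and 0.46. Mag, a myelin adhesion molecule, was at 1002 and 1503 (0.58, with probes between 0.19 and 0.58). Opalin was at 62.2 and 42.7 (-0.54, with probes between -0.54 and -0.03). Of the precursor genes 9 of 10 lay above 0, against 46% of all genes. Neu4 was at 3.72 and 6.86 (0.88), Cspg4 at 20.9 and 37.0 (0.82) and Gpr17 at 425 and 730.0 (0.78), each above the 95th percentile of all genes (0.767). The 2 probes of Neu4 lay at 0.88 and 1.28, so its dimmer probe passed 2-fold. Pdgfra, the growth factor receptor of these cells, was at 77.3 and 111 (0.53). None of 18 cholesterol synthesis genes was 2-fold different (median 0.09). Endothelial genes were all slightly lower, from -0.85 (Slco1a4) to -0.03, with a median of -0.37, against 53.8% of all genes below 0. The 12 pericyte and fibroblast genes had a median of -0.05, none at 2-fold.

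The lower side was of another kind. Serpina12, the adipokine vaspin, was at 14.3 on the wild-type iguratimod array and not well above background on the other 7, so that it was at least 6.18-fold lower on the Cx47-deficient array (a difference of -1.19 under normexp correction). The choroid plexus genes Folr1, the folate receptor, and Kcne2, a potassium channel subunit, were at 94.2 and 19.5 (-2.27) and at 60.6 and 12.8 (-2.25). The 2 probes of Folr1 differed, at -2.27 and -0.75, with a mean of -1.51. Ttr, the thyroid hormone carrier secreted by choroid plexus, was at 3453 and 874 (-1.98). Mybpc3, known from heart muscle, was at 282 and 67.6 (-2.06), and Bcl2l15, a BCL2 family member, at 79.3 and 17.9 (-2.15). Prl2c5 (-2.50) belongs to a multigene family, so its probe may read related copies. Gm13944 (-2.59), Gm30313 (-2.09), Exoc3l (-2.01) and Iltifb (-1.98) were also among the 12 largest. Of the 546 lower genes, 34.4% had no match in the RefSeq table and 12.3% were probes for long intergenic RNA regions, against 24.5% and 8.66% of all genes compared, and their median level over both arrays was 8.26 against 64.4.

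Marker genes of brain regions other than the labelled spinal cord also differed between the arrays. All 12 striatal neuron genes were higher in the Cx47-deficient array, 10 of them by 2-fold or more, with a median of 1.56. The dopamine receptor Drd1 was at 39.5 on the wild-type and 216 on the Cx47-deficient array (2.45), Rgs9 at 143 and 642 (2.17) and the adenosine receptor Adora2a at 14.1 and 63.2 (2.17). The orphan receptor Gpr6 differed by 2.42, to a level of 53.8 on the Cx47-deficient array. All 12 cerebellar neuron genes were lower, 10 of them by 2-fold or more, with a median of -1.62: Gabra6, a GABA receptor subunit of granule cells, was at 1173 and 315 (-1.90) and Pcp2 of Purkinje cells at 10977 and 3007 (-1.87). Choroid plexus genes had a median of -1.28 with 7 of 11 lower by 2-fold and none higher, and erythroid genes -1.06 with 3 of 6. The erythroid median was -0.59 under normexp correction and -0.20 with no filter on dim probes. General neuronal genes had a median of 0.01, none of 14 at 2-fold.

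**Figure D4:**
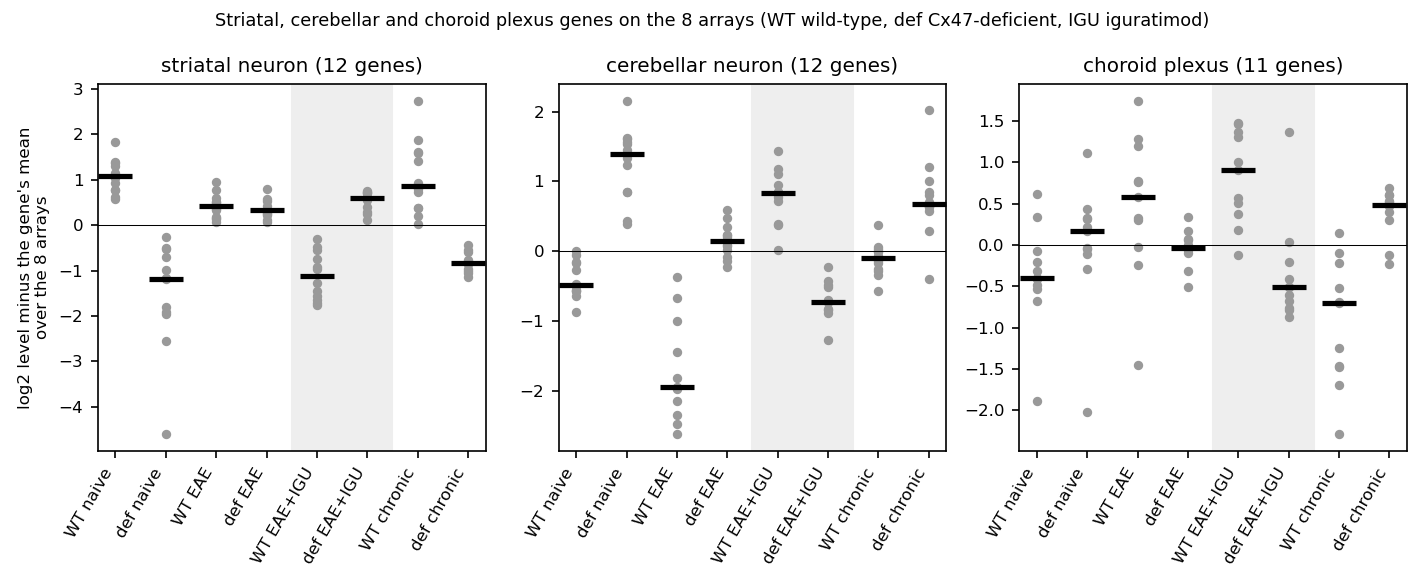
Log2 level of each striatal, cerebellar and choroid plexus gene minus its mean over the 8 arrays (vertical axis), by array, with the iguratimod pair shaded; grey points are genes and black bars their median. Striatal genes are low on the wild-type iguratimod array and high on the Cx47-deficient one, and cerebellar and choroid plexus genes run the other way.

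These regional genes varied over the other arrays too. The 12 striatal genes summed to a level of 5505 on the wild-type and 10926 on the Cx47-deficient iguratimod array, 9859.8 and 9857 in untreated EAE, 14438 and 5063 in naive mice and 12909 and 4581 in chronic EAE. The 12 cerebellar genes summed to 32584 and 11673 with iguratimod, 6807 and 18307 in untreated EAE, 14353 and 33888 in naive mice and 14982 and 27834 in chronic EAE. The 11 choroid plexus genes summed to 6712 and 3586 with iguratimod, 6363 and 3758 in untreated EAE, 4184 and 4289 in naive mice and 1941 and 4295 in chronic EAE. The cerebellar sum was higher on the Cx47-deficient array in the 3 other pairs and lower in the iguratimod pair, while the striatal sum was lower in naive mice and chronic EAE and almost equal in untreated EAE. The choroid plexus sum was lower on the Cx47-deficient array in both untreated and iguratimod-treated EAE. Bright probes weigh most in these sums, and Ttr alone was at 3453 and 874 in the iguratimod pair. The list medians, which a single bright probe does not lead, were 2.02, 1.96 and 0.84 for cerebellar genes in untreated EAE, naive and chronic pairs. For choroid plexus genes the median was -0.61 in untreated EAE. Drd2, on the wild-type iguratimod array, was the only striatal gene not well above background there, and all cerebellar and choroid plexus genes were well above background on both arrays. Forebrain transcription factors, a list added after the values were seen, were well above background on all 8 arrays (10 of 10). Their median was 0.14, and 1 of 10 was 2-fold or more higher. This was Six3, at 4.08 on the wild-type and 16.9 on the Cx47-deficient array (2.05). The 30 Hox genes, which pattern spinal cord and hindbrain, had a median of 0.27 with none at 2-fold. Of these Hox genes 23 were well above background on all 8 arrays. What these regional differences contribute to the other differences between the 2 arrays was not tested.

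Ido1, the tryptophan-degrading enzyme that interferon-gamma can induce, ranked among the largest higher genes, at 9.23 and 44.6 (2.27). Over the other arrays it was at 71.8 (wild-type) and 4.35 (Cx47-deficient) in naive mice, 32.6 and 27.7 in untreated EAE and 45.3 and 8.53 in chronic EAE. Its highest level was on the naive wild-type array, and the cause of these differences was not tested.

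The genes lower by 2-fold in the iguratimod pair mostly pointed the other way in untreated EAE and in naive mice, pairs that share no array with it. Of the 508 that were compared in untreated EAE as well, 316 (62.2%) were 2-fold or more higher there, against 6.74% of all genes in that pair, and 13 (2.56%) were lower, against 0.769%. In naive mice 269 of 507 (53.1%) were 2-fold or more higher, against 8.03% of all genes. In chronic EAE 86 of 480 (17.9%) were, against 2.09% of all genes in that pair and 1.52% of those compared in both pairs. The 316 genes were 19.6% of the 1613 higher in untreated EAE. By array, the median level of the 546 genes was 13.7 (wild-type) and 4.91 (Cx47-deficient) with iguratimod, 4.30 and 15.4 in untreated EAE, and 7.97 and 21.5 in naive mice. Mybpc3 ran the same way, at 34.2 and 165 in untreated EAE and 118 and 505 in naive mice.

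For the 611 higher genes the other pairs gave a smaller overlap. Of 595 compared in untreated EAE 125 (21%) were 2-fold or more higher there, against 6.74% of all genes, and 2 (0.336%) lower. In naive mice 85 of 498 (17.1%) were higher, against 8.03%, and 51 (10.2%) lower, against 2.68%. In chronic EAE 12 of 572 (2.1%) were higher, against 2.09% of all genes in that pair and 1.52% of the 22867 compared in both pairs. There 62 (10.8%) were lower, against 1.9% and 0.988%. Their median level was 9.23 (wild-type) and 24.1 (Cx47-deficient) with iguratimod, 15.3 and 25.1 in untreated EAE and 6.58 and 8.07 in naive mice. The wild-type iguratimod array lay lowest of these 4 EAE arrays; the 611 were chosen on the iguratimod pair, so its own gap is a description.

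A few immune genes, chosen after their values were seen, are given with their levels in untreated EAE. Cd3g was at 9.08 on the wild-type and 22.5 on the Cx47-deficient array in untreated EAE and at 4.46 and 21.4 with iguratimod. Cd74 was at 959 and 1857 and then at 455 and 1267, and C1qa at 1061 and 1471 and then at 584 and 1433. Other genes were arranged differently: Gzma, a granule protease, was at 15.1 and 29.3 and then at 12.9 and 33.9, and the wild-type level of S100a8 was 154 in untreated EAE and 173 with iguratimod. The difference between the pairs cannot be tested with 1 array per group.

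**Figure D5:**
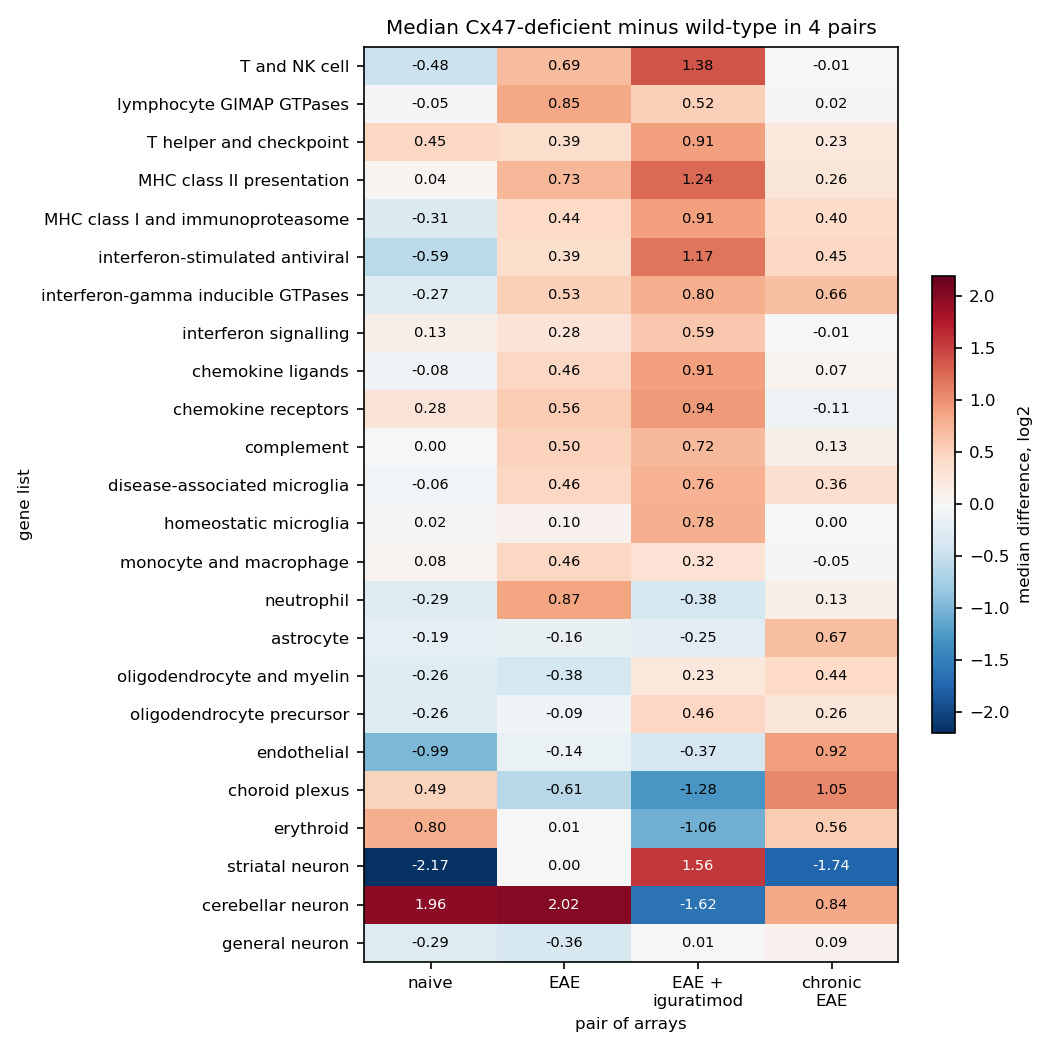
Median Cx47-deficient minus wild-type difference (log2) of each gene list (rows) in the 4 pairs of arrays (columns), with red higher and blue lower in Cx47-deficient mice. T and NK cell genes stand at -0.48, 0.69, 1.38 and -0.01 in naive, untreated EAE, iguratimod and chronic pairs, and striatal genes at -2.17, 0.00, 1.56 and -1.74.

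Side by side, the list medians in the naive, untreated EAE, iguratimod and chronic pairs were 0.04, 0.73, 1.24 and 0.26 for MHC class II presentation and -0.59, 0.39, 1.17 and 0.45 for the antiviral genes. Complement genes stood at 0.00, 0.50, 0.72 and 0.13 in the same order. Across the 20950 genes bright on all 4 arrays, the iguratimod and untreated EAE differences had a Pearson correlation of -0.0288, and the value was -0.158 with naive and -0.355 with chronic EAE. These correlations run over genes, which are not independent replicates, and are descriptions only.

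Sex-linked genes were checked for a mismatch between the 2 arrays. Xist was dim on both, and Ddx3y, Eif2s3y, Uty and Kdm5d were bright on both, with differences between -0.42 and 0.33. By contrast, 56 genes compared had probes on unplaced Y chromosome sequence (chrY_random of mm9), a repeated region of multicopy genes. Of these 39 were 2-fold or more lower, against 2.35% of all genes, none was higher, and their median was -1.52. All 56 were well above background on the wild-type iguratimod array and 34 on the Cx47-deficient one. Each thus passed the filter through the wild-type array, and differences of those dim on the other are bounds. Probes of a repeated region may share signal, so the 56 are not separate observations. Their median level was 11.2 and 3.67 on the wild-type and Cx47-deficient iguratimod arrays, 9.32 and 19.9 in naive mice, and 0.459 and 0.599 in chronic EAE. In untreated EAE 21 of them were well above background on the wild-type and 56 on the Cx47-deficient array, and in chronic EAE 14 and 11.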

How the data were processed

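RNA of each group was labelled with Cy3 and measured on 1 single-channel Agilent array. Each array's deposited scanner output gives intensity per spot. The file headers name Agilent Feature Extraction 10.7.1.1, while the submitters' processing notes name version 9.5.1.1. Other columns, such as the flags for signals well above background and outliers, were taken as deposited. The authors' table of processed intensity values, which its values show to be linear and quantile normalized between arrays, served as an alternative. There were 0 unassigned columns. TRIzol extraction, column clean-up and low-input labelling are the steps in the labels' protocols.

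The processed signal of spots that are not controls was put on the log2 scale, each array's 75th percentile was subtracted, spots marked as outliers (53 and 59 on the arrays compared) were left out, and spots of a probe were averaged (median SD 0.0443 and 0.0455 log2 over 300 repeated probes). Probes dim on both iguratimod arrays were dropped. For a gene with several remaining probes, the probe brightest on average over the 8 arrays stands for it. Where several probes were kept, all had the same sign for 112 of 124 higher and 76 of 94 lower genes. A dim value was raised to the lowest signal well above background on its array, which gives a bound ("at least N-fold": the bright array over that floor or the dim signal, whichever is higher). Of 56605 probes, 33903 were named by an accession, 9458 by a symbol and 488 by a synonym in a RefSeq table, and 12756 kept the file's name. Probe positions are those of mm9 in the scanner files, and promoter positions those of GRCm38.p6.

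Some genes are not reported here. No test was run. The script was checked on simulated arrays. The rule for named genes was the 12 largest differences on each side that were 2-fold in the main setting, after normexp (offset 50) and under quantile normalization, up to 6 members of a list with the largest differences, and the connexins, Gfap, Aqp4, Il6, Cxcl10 and Xist; other genes named beside these were chosen after their values were seen. The comparison and the 44 gene lists were chosen with earlier results of these data known, and the forebrain and Hox lists after their values were seen. Work was done in R 4.3.3 with limma 3.58.1 and in Python 3.11.15 with pandas 2.3.3, numpy 2.4.6 and matplotlib 3.10.9.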

Additional observations from a re-analysis of the deposited data

Results flagged for a closer look

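For 5 gene lists the genotype difference lay in opposite directions with and without iguratimod, with both medians beyond 0.205. That value is the median scanner error of a single gene and holds no spread between mice or preparations, so it sets only which lists are given here. The difference between the pairs was not tested, since each group has 1 array. Under median centring the myelin median of the iguratimod pair was 0.14, and under normexp the ependymal median was -0.20, both inside that value. The cerebellar neuron median was -1.62 in the iguratimod pair and 2.02 in untreated EAE. The neutrophil median was -0.38 and 0.87, and S100a8 was at 173 and 115 on the wild-type and Cx47-deficient iguratimod arrays against 154 and 277 in untreated EAE. The immediate early median was 0.53 and -0.32, with Egr2, an activity-induced transcription factor, at 63.2 and 149 with iguratimod and 85.1 and 69.9 without. The oligodendrocyte and myelin median was 0.23 and -0.38, with Mag, by its brightest probe, at 1002 and 1503 against 1671 and 1164. The ependymal median was -0.24 and 0.26, with the cilia gene Ccdc153 at 39.4 and 34.3 against 35.0 and 53.9.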

How the results depend on the processing

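The 2-fold counts, 611 higher and 546 lower, moved by over 1.5 times under normexp background correction (183 and 134), with no filter on dim probes (1759 and 1811), at 1.5-fold (1858 and 1560) and at 3-fold (82 and 130). Under quantile normalization they were 447 and 551, with the authors' values 439 and 532, and with the filter on both arrays 507 and 410. Under normexp, list medians moved to 0.70 for T and NK cell, 0.78 for antiviral, 0.46 for complement, 1.29 for striatal and -0.86 for choroid plexus genes. The chemokine receptor, T helper, GIMAP, B and plasma cell, erythroid and proliferation medians moved to 0.37, 0.59, 0.21, 0.09, -0.59 and 0.03. With the filter on both arrays the striatal median was 1.35 and that of B and plasma cells 0.68; with no filter the erythroid, monocyte, GIMAP and cytokine medians were -0.20, 0.57, 0.74 and 0.42. Of the recomputed list medians 334 stayed within 0.205 of the main value and 18 moved further. The sex-linked median turned from -0.14 to 0.08 with the mean of kept probes, and the general neuron, spinal motor neuron, connexin and glycolysis medians, each within 0.08 of 0, changed sign under some settings. Of the recomputed differences of named genes 216 counted as the same and 37 moved further. A turn of sign was counted only where the main difference was beyond 0.205, which left 1, Gja1 with the mean of its kept probes (0.10). Gjc3, counted as moved, also changed sign in that setting, from -0.09 to 0.19.

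No paired analysis was possible because each group has 1 array and the labels carry no replicate numbers. For the same reason leaving out a replicate could not be run. Signal over background limits the values: genes with a mean level under 10 had a median scanner error of 0.328, against 0.204 over 100. Normexp with its offset lowers differences of dim probes by construction.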

Other observations

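Immediate early genes, which neurons and glia switch on within minutes of stimulation, were mostly higher in the Cx47-deficient iguratimod array: 12 of 14 lay above 0, and Egr2 (1.23) and Fosb (28.8 and 61.1, 1.08) reached 2-fold. In the naive and chronic pairs their medians were -0.87 and -0.64. Cell division genes differed little, with a median of 0.26 and none of 14 at 2-fold, and the proliferation marker Mki67 was at 20.2 and 26.9 (0.41).

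Metabolic genes were close between the genotypes. Of 15 glycolysis and lactate genes only Slc16a3, a lactate exporter, reached 2-fold, at 27.7 and 61.8 (1.16), and the list median was -0.08. None of 13 metallothionein and oxidative stress genes did, with Mt2 at 14443 and 9981 (-0.53) and Hmox1, which degrades haem, at 85.9 and 134 (0.64). Among leukocyte adhesion genes, the integrin subunit Itgb2 was at 32.2 and 88.9 (1.46) and Selplg, the ligand of P-selectin, at 183 and 406, while Madcam1, an endothelial ligand, was at 19.3 and 6.74 (-1.52). The 7 spinal motor neuron genes had a median of -0.01, and 1 reached 2-fold. It was Isl1, also made in striatum, which was at 3.24 and 8.14 (1.33), whereas Slc18a3 of the same list differed by -0.04.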
